A study of Mus musculus with 66 samples.

Results

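Transcript levels of 10 genes for G-quadruplex helicases and binding proteins were followed across 7 RNA sequencing libraries of mouse embryonic stem cells. The 10 genes were taken by name from proteins known to unwind or bind G-quadruplexes, out of 55487 genes in the tables, and all 10 were among the 15421 genes that passed the filter on low counts. They are Dhx36, Dhx9, Ddx5, Ddx21, Pif1, Wrn, Rtel1, Atrx, Cnbp and Ncl. The study asked how G-quadruplexes that accompany R-loops bear on CTCF, and in this experiment it removed a G-quadruplex at Praf2. The wildtype group had 3 libraries, and the Praf2 G4 deletion genotype had 4, which the labels number as GDel1 (2 libraries) and GDel2 (2 libraries). All were untreated E14 embryonic stem cells kept in medium with serum, LIF, a GSK inhibitor and a MEK inhibitor, and their total RNA was sequenced after removal of ribosomal RNA. From the labels it is not known if GDel1 and GDel2 are different clones or if replicates come from different cultures, so each p value measures only the spread between these libraries, which may be technical.

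A G-quadruplex is a fold of guanine-rich DNA or RNA in which guanines of several short runs pair in stacked planes. Helicases unwind the fold so that polymerases and ribosomes can pass, and other proteins bind or stabilise it. Folds of this kind occur at telomeres, at many promoters and in the untranslated parts of messenger RNAs, and the displaced strand of an R-loop can form one.

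Because the genes encode proteins that act on G-quadruplexes, their own promoters were searched for the motif of such a fold. The motif was 4 runs of GGG separated by 1 to 7 N, with N any base, searched on both strands in the 250 bases before each transcription start in RefSeq promoter sequences of GRCm38.p6. Entries were present for 8 of the 10 genes, not for Wrn and Pif1, and they gave 10 windows, since Ddx5 had 3 starts. A match was found in 4 of these 10 windows (40.0%), against 16.6% of all 32851 windows and 24.6% of the 12994 windows of tested genes. Ddx5 gave more than 1 of the matches, so the windows are not separate genes. The windows were not matched for GC content, whose median was 63.4% in the 10, 52.4% in all and 60.0% in those of tested genes. The matches are shown to let their runs and loops be compared, with the runs of G in capitals, each written 5′ to 3′ on the strand that carries the runs.
Ncl: GGGcGGGGctcttaGGGGcGGG
Rtel1: GGGGGctGGGGGctGGGGGGtGGG
Ddx5, main start: GGGGaaggaGGGGtggaagaGGGaGGG
Ddx5, alternative start: GGGcGGGcGGGcgttgaGGG

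The Ncl match lies at chr1:86359522-86359543 on the plus strand, opposite to the gene, 67 to 88 bases before the start. The Rtel1 match lies at chr2:181319608-181319631 on the minus strand, also opposite to the gene, 93 to 116 bases before the start. Both Ddx5 matches lie on the minus strand, which is the gene's own. One is at chr11:106789218-106789244, 33 to 59 bases before the main start, and the other is at chr11:106788603-106788622, 109 to 128 bases before the alternative start. No match was in the windows of Dhx36, Dhx9, Ddx21, Atrx and Cnbp, which says only that these letters were not found there. A match is a sequence pattern and not a measured fold.

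The libraries held 12316853 to 18762704 expected counts, the estimated reads per gene. Levels per library are given in CPM, read counts scaled to a common library size by the TMM method, and are not corrected for gene length. Praf2, the gene the genotype is named for, had 27.5 to 30.6 CPM in wildtype, 9.26 to 10.1 in GDel1 and 13.1 to 14.1 in GDel2. All 10 pluripotency markers were above 10 CPM in every group, and the summed level of 8 markers of fibroblast feeder cells was at most 3.16 CPM. The summed level of 6 markers of 2-cell-like cells was 1.20 to 2.84 CPM in the wildtype and GDel1 libraries and 16.7 to 18.7 in GDel2, and its part in the results for GDel2 was not tested. Mitochondrially encoded RNA made up 9.91% of the counts of GDel1 replicate 1 and 9.60% of those of GDel2 replicate 2, against 4.83% to 6.89% in the other 5 libraries. In bulk RNA, fewer cells that express a gene and less of its RNA per cell cannot be told apart.

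In wildtype cells the 10 genes spanned a 43.1-fold range of TPM, a transcript share that corrects for length and so allows genes to be compared. Ddx5 was highest at 204 ± 28.8 TPM (SD, n = 3), followed by Dhx9 at 165 ± 20.1 and Cnbp at 156 ± 15.6. Ncl had 117 ± 7.0 TPM, Ddx21 57.5 ± 7.64, Atrx 53.1 ± 21.0 and Rtel1 45.3 ± 7.16. The last 3 were Dhx36 at 26.5 ± 3.00, Pif1 at 7.49 ± 0.917 and Wrn at 4.74 ± 0.403 TPM. Neighbours in this order were apart, with no overlap of the 3 libraries of each gene, in 5 of 9 pairs. The 4 pairs that overlapped were Ddx5 and Dhx9, Dhx9 and Cnbp, Ddx21 and Atrx, and Atrx and Rtel1. Within each wildtype library, however, Ddx5 was above Dhx9 and Dhx9 above Cnbp. On TMM-scaled CPM per kilobase 7 of 9 pairs were apart, and only Ddx21 and Atrx, and Atrx and Rtel1, overlapped. Ddx5 and Dhx9 were above 97.8% and 97.2% of tested genes, and Pif1 and Wrn stood near the middle, above 58.0% and 48.3%.

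**Figure D1:**
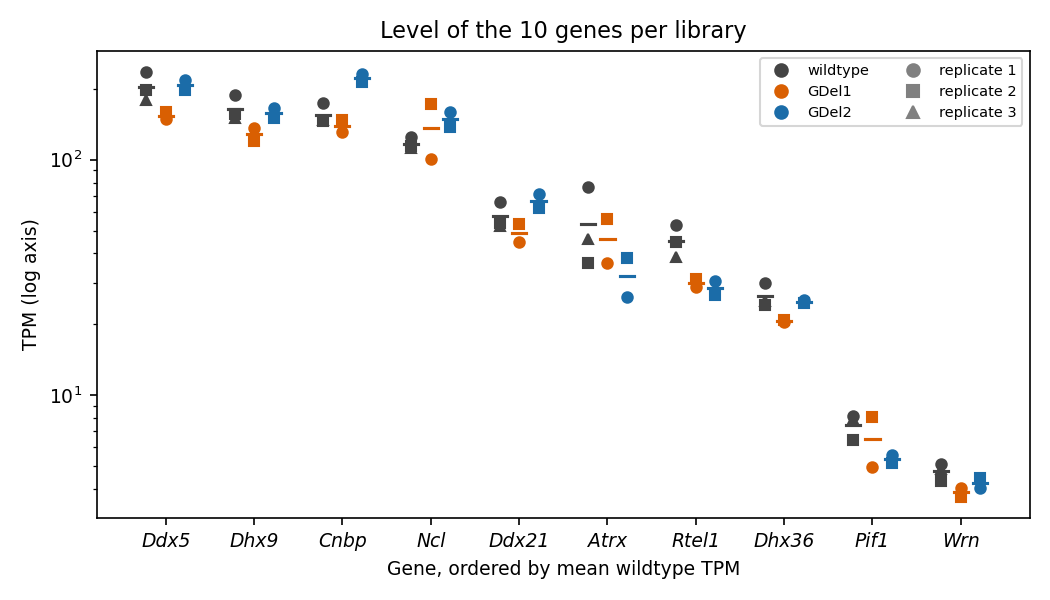
TPM on a log axis for each of the 10 genes, with 1 point per library, coloured by group (wildtype 3, GDel1 2, GDel2 2). Ddx5, Dhx9, Cnbp and Ncl are the most abundant, Pif1 and Wrn the least, and the points of Atrx are among the most spread.

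The 4 comparisons below use 3 wildtype libraries throughout, so GDel1 and GDel2 against wildtype share their controls. Log2 fold changes are from edgeR with the standard error, and p values are from its quasi-likelihood test, adjusted over all 15421 genes with a threshold of 0.05. In GDel2 against wildtype 4 of the 10 genes passed (33.1% of all genes did): Cnbp, Ddx21 and Ncl rose (17.4% of all genes rose) and Rtel1 fell (15.6% fell). DESeq2 called 4 (26.1% of all genes) and limma on TPM called 1 (16.9%). Both GDel2 libraries were above all wildtype libraries for 4 of the 10 (32.2% of all genes) and below them for 2 (31.0%). In GDel1 against wildtype none passed, against 0.376% of all genes, with 5 of the 10 at an unadjusted p under 0.05 (24.5% of all genes), 2 past the threshold in DESeq2 (6.44%) and 1 with limma on TPM (21.1%). Without GDel1 replicate 1 and GDel2 replicate 2 together, the libraries with the most mitochondrial RNA, 6 of the 10 passed in each comparison with wildtype (26.3% of the 16207 genes of that fit passed in GDel1 and 36.5% in GDel2), in fits where 1 library stood for each deletion and was assumed to vary like the wildtype group. The median log2 fold change of the 10 genes was 0.04 in GDel2 and 0.22 in GDel1, against 0.01 and 0.00 over all genes.

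**Figure D2:**
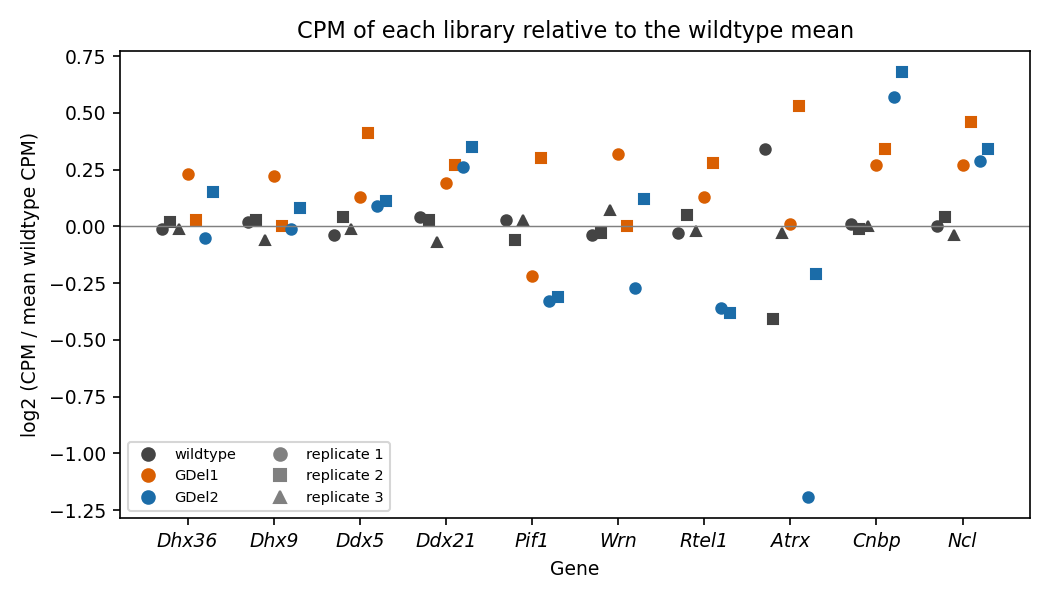
Log2 ratio of each library's CPM to the wildtype mean, for the 10 genes, with 1 point per library. Cnbp stands highest in both GDel2 libraries, Rtel1 is above the wildtype libraries in GDel1 and below them in GDel2, and Atrx is spread within every group.

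Cnbp, a zinc-knuckle protein that binds guanine-rich sequences and can unfold G-quadruplexes in messenger RNAs, had the largest log2 difference of the 10 among those that passed in the edgeR fit of all 7 libraries with the filter. Its CPM was 340, 336 and 337 in wildtype, 407 and 426 in GDel1, and 501 and 541 in GDel2. On this scale the 3 groups did not overlap, and wildtype was the lowest and GDel2 the highest. Cnbp rose 1.54-fold in GDel2 (log2 0.63 ± 0.08, adjusted p = 6.36e-04). In GDel1 the log2 difference was 0.30 ± 0.08 and did not pass (adjusted p = 0.0754). Without GDel1 replicate 1 it was 0.34, from the 1 GDel1 library that remained. GDel2 was also above GDel1 (log2 0.32 ± 0.09, adjusted p = 0.0271). The rise in GDel2 against wildtype passed in all 7 fits that left out 1 library each, with adjusted p from 5.70e-05 to 0.00836. The difference between GDel2 and GDel1 was lost without wildtype replicate 1 (adjusted p = 0.0684), 2 (0.0720) or 3 (0.0635) or GDel2 replicate 2 (0.125). On log2(TPM + 1) with limma the rise in GDel2 was 0.52 (adjusted p = 0.0609), and the difference from GDel1 was 0.68 (0.0236). GDel1 against wildtype was -0.16 on that scale (0.505), with 139 ± 11.6 TPM in GDel1 (SD, n = 2) and 156 ± 15.6 in wildtype (n = 3).

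Ncl encodes nucleolin, an abundant nucleolar protein that binds and stabilises G-quadruplexes and takes part in ribosome production. Its CPM was 981, 1007 and 952 in wildtype, 1183 and 1346 in GDel1, and 1199 and 1243 in GDel2. All 4 deletion libraries were above all 3 wildtype libraries, and the GDel2 libraries lay between those of GDel1. Ncl rose in GDel2 by a log2 of 0.32 ± 0.09 (adjusted p = 0.0302), a 1.25-fold change. In GDel1 the difference was as large, 0.37 ± 0.09, and did not pass (adjusted p = 0.0702). GDel2 and GDel1 differed by -0.05, with a 95% interval of -0.28 to 0.18. The GDel2 call was lost without wildtype replicate 1 (0.108), 2 (0.0915) or 3 (0.115), and without GDel2 replicate 1 (0.0836) or 2 (0.154). Without GDel1 replicate 1 the GDel1 difference was 0.46, from the 1 GDel1 library that remained.

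Ddx21, a nucleolar DEAD-box helicase that binds G-quadruplex RNA and unwinds R-loops, was also higher in GDel2. Its CPM was 371, 370 and 345 in wildtype, 413 and 436 in GDel1, and 434 and 460 in GDel2. Again all 4 deletion libraries were above wildtype, and those of GDel1 and GDel2 overlapped. Ddx21 rose in GDel2 by a log2 of 0.31 ± 0.08 (adjusted p = 0.0230), and in GDel1 the value was 0.23 ± 0.08 (0.139). The GDel2 call was lost without any 1 of the wildtype libraries (0.0718, 0.0767 and 0.0990) and without GDel2 replicate 2 (0.136). Over the 7 libraries, log2 CPM of Ddx21 had a Pearson correlation of 0.936 with Ncl and 0.934 with Cnbp, the 2 highest of any pairs of the 10 genes. These values describe libraries that share their groups, and 51 of all tested genes were above 0.95 with Ddx21 and 52 with Ncl. With limma on log2(TPM + 1) neither rise in GDel2 passed, at 0.22 for Ddx21 (adjusted p = 0.449) and 0.34 for Ncl (0.312).

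Rtel1, a DNA helicase that dismantles telomere loops and telomeric G-quadruplexes, fell in GDel2, the only one of the 10 to do so in the edgeR fit of all 7 libraries with the filter on low counts. Its CPM was 108, 115 and 109 in wildtype, 121 and 134 in GDel1, and 86.4 and 84.9 in GDel2. The GDel2 libraries were below wildtype and the GDel1 libraries above it. Rtel1 fell by 0.37 ± 0.08 on the log2 scale in GDel2 (adjusted p = 0.0106), while the value in GDel1 was 0.21 ± 0.08 (0.169). The difference between GDel2 and GDel1 was -0.58 ± 0.09 (adjusted p = 0.00246), which passed in all 7 fits that left out 1 library (5.33e-04 to 0.0185). The fall against wildtype was lost without wildtype replicate 2 (0.0562) or GDel2 replicate 2 (0.0636).

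Rtel1 took another pattern in TPM, which differs from CPM both in the correction for length and in the scaling of each library. Its TPM was 52.9, 44.5 and 38.6 in wildtype, 28.9 and 31.1 in GDel1, and 30.4 and 26.5 in GDel2, so all 4 deletion libraries were below wildtype. On TMM-scaled CPM per kilobase wildtype was 62.6 to 73.2. There both GDel1 libraries lay within the wildtype range and both GDel2 libraries below it. On log2(TPM + 1) the median difference of all genes was -0.30 in GDel1, -0.05 in GDel2 and 0.24 between GDel2 and GDel1, and on log2(TPM + 0.1) it was -0.44, -0.07 and 0.36. On log2(TPM + 1) Rtel1 was -0.57 in GDel1 with limma (adjusted p = 0.0423), or -0.27 relative to the median of all genes, the opposite sign to CPM. On log2(TPM + 0.1) it was -0.58 (0.0388), or -0.15 relative to the median. In GDel2, again on log2(TPM + 1), Rtel1 was -0.65 (0.0258), or -0.60 relative to the median. On that same scale GDel2 and GDel1 differed by -0.08 (0.795), or -0.32 relative to the median.

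The tables give a mean transcript length for each gene, weighted by the estimated share of its isoforms, and Rtel1 has 21 annotated transcripts. The length of Rtel1 was 1640, 1720 and 1894 bases in wildtype, 2074 and 2269 in GDel1, and 2029 and 1962 in GDel2, so all deletion libraries had longer estimates. With limma on log2 length, a test chosen after the data were seen, the deletion group was 0.25 ± 0.07 above wildtype (unadjusted p = 0.0116, adjusted p = 0.841), and 155 of 11502 genes had a lower p. In GDel1 it was 0.31 ± 0.08 (unadjusted p = 0.00983, adjusted p = 0.50). None of the 10 genes passed after adjustment in any comparison of length (0.0261% of genes did in GDel1 and 0.00869% in GDel2), and the part of isoform estimates in the TPM values was not tested. For Ncl the length was 4006 bases in GDel1 replicate 2 and 5103 to 5862 in the other 6 libraries, and its TPM in that library was the highest, 172, against 101 to 160 elsewhere.

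**Figure D3:**
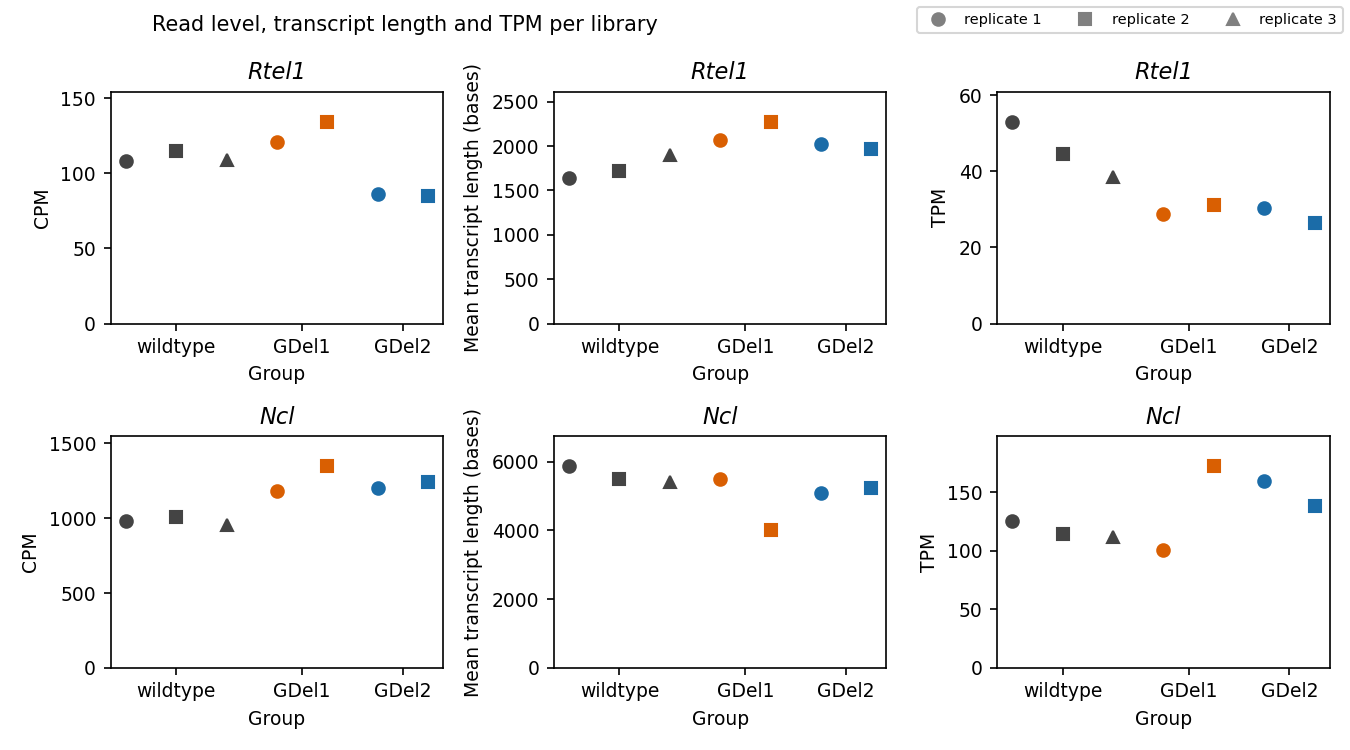
CPM, mean transcript length in bases and TPM of Rtel1 (top) and Ncl (bottom), with 1 point per library and the marker shape giving the replicate number. For Rtel1, GDel1 is above wildtype in CPM and below it in TPM, beside longer transcript estimates in all 4 deletion libraries.

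Ddx5, a DEAD-box RNA helicase and transcription cofactor that unfolds G-quadruplexes, had 714, 756 and 729 CPM in wildtype, 801 and 971 in GDel1, and 781 and 790 in GDel2. All 4 deletion libraries were above wildtype, and GDel1 replicate 2 was the highest. The log2 difference was 0.27 ± 0.10 in GDel1 (adjusted p = 0.144) and 0.10 ± 0.10 in GDel2 (0.492), and neither passed. Without GDel1 replicate 1 the GDel1 difference was 0.41 and that between GDel2 and GDel1 was -0.31, with 1 GDel1 library left.

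Dhx36 and Dhx9 belong to a family of RNA helicases, and Dhx36 is a main unwinding enzyme of RNA and DNA G-quadruplexes in cells. Dhx36 had 192, 195 and 191 CPM in wildtype, 227 and 197 in GDel1, and 186 and 213 in GDel2. Dhx9, which also unwinds R-loops, had 916, 923 and 864 CPM in wildtype, 1049 and 898 in GDel1, and 897 and 951 in GDel2. For both genes the highest 2 libraries were GDel1 replicate 1 and GDel2 replicate 2, those with the larger mitochondrial share, whose part in this was not tested. The differences were 0.14 ± 0.10 for Dhx36 and 0.11 ± 0.10 for Dhx9 in GDel1, and 0.05 ± 0.10 and 0.04 ± 0.10 in GDel2, and none passed (adjusted p from 0.420 to 0.812). The 95% intervals in GDel2 were -0.17 to 0.27 for Dhx36 and -0.19 to 0.26 for Dhx9.

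Wrn, a RecQ helicase with a nuclease domain that resolves G-quadruplexes in replication, had 38.6, 39.0 and 41.6 CPM in wildtype, 49.5 and 39.8 in GDel1, and 33.0 and 43.2 in GDel2. The highest 2 libraries were again those with the larger mitochondrial share. Its log2 difference was 0.16 ± 0.14 in GDel1 (adjusted p = 0.492) and -0.06 ± 0.14 in GDel2 (0.769). Pif1, a DNA helicase that removes G-quadruplexes ahead of replication forks, had 28.9, 27.2 and 28.8 CPM in wildtype, 24.2 and 34.9 in GDel1, and 22.5 and 22.8 in GDel2. Both GDel2 libraries were below all others, and the GDel1 libraries lay on either side of wildtype. The Pif1 difference was -0.32 ± 0.15 in GDel2 (adjusted p = 0.131) and -0.39 ± 0.16 between GDel2 and GDel1 (0.104), and neither passed. Without GDel1 replicate 1 or 2 the GDel2 difference stayed at -0.32, since leaving out a GDel1 library changes only the spread that the groups share. Without GDel1 replicate 1 the difference between GDel2 and GDel1 was -0.63, with 1 GDel1 library left. Without GDel1 replicate 1 and GDel2 replicate 2 together Wrn was at -0.27 in GDel2, with 1 library left for each deletion.

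Atrx, a chromatin remodeller that with Daxx places a replacement histone at telomeres and other repeats prone to G-quadruplexes, varied most within wildtype, with a coefficient of variation of 25.8% in CPM against at most 4.16% for the other 9 genes. Its CPM was 456, 271 and 351 in wildtype, 363 and 519 in GDel1, and 158 and 310 in GDel2. The lowest value was in GDel2 and the highest in GDel1, and both groups overlapped wildtype. The difference was -0.62 ± 0.36 in GDel2 (adjusted p = 0.246), with a 95% interval of -1.50 to 0.26, and 0.30 ± 0.35 in GDel1 (0.647). Between GDel2 and GDel1 it was -0.91 ± 0.39 (adjusted p = 0.138). Without GDel2 replicate 2 that difference was -1.48, with only GDel2 replicate 1 left for GDel2. Without the filter on low counts the Atrx differences changed little, to -0.65 against wildtype and -0.96 against GDel1. There they passed in edgeR (adjusted p = 3.35e-07 and 6.97e-13), as did 5974 and 5417 of all genes, against 5099 and 4268 with the filter. The libraries were the same, so the lower p values came from the spread that this fit estimated.

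**Figure D4:**
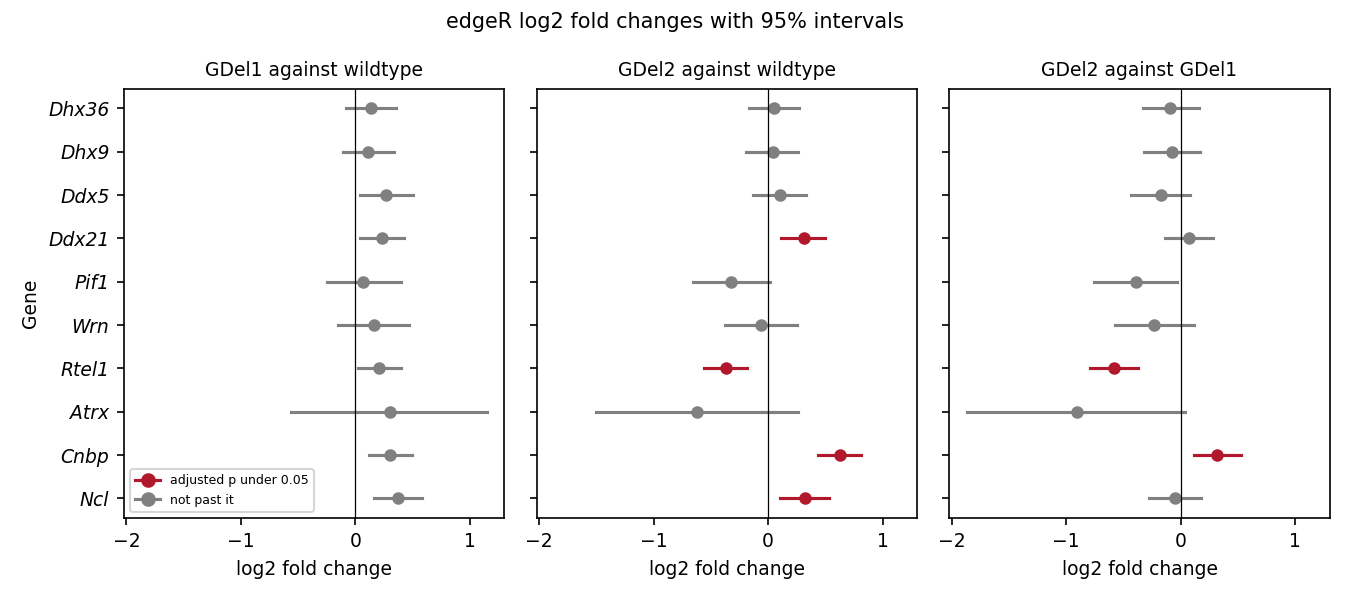
Log2 fold changes from edgeR with 95% intervals for the 10 genes, with a panel each for GDel1 and GDel2 against wildtype and 1 for GDel2 against GDel1, in red where the adjusted p is under 0.05. None is red for GDel1, Cnbp, Ddx21, Ncl and Rtel1 are red for GDel2, and Rtel1 and Cnbp are red between GDel2 and GDel1.

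Between GDel2 and GDel1, 2 of the 10 genes passed (27.7% of all genes), 1 higher and 1 lower, and the median of the 10 was -0.13 against -0.01 over all genes. In GDel1 against wildtype all 10 log2 differences were above 0 on the CPM scale (50.3% of all genes were) and 6 of the 10 had both GDel1 libraries above all wildtype libraries (20.9% of genes). On the TPM scale 9 of these 10 were below 0. Relative to the median of all genes 6 were above it on log2(TPM + 1) (Ddx21, Pif1, Wrn, Atrx, Cnbp and Ncl), and on log2(TPM + 0.1) 9 were, with Rtel1 below it. With all 4 deletion libraries as 1 group, edgeR called none of the 10 and none of 15421 genes (0%), with 3 of the 10 at an unadjusted p under 0.05 (19.0% of all genes). DESeq2 called Cnbp, Ncl and Ddx21 (6.28% of all genes), and limma on TPM called none (0.0130%). In edgeR those were 0.47 ± 0.12 for Cnbp (adjusted p = 0.150), 0.34 ± 0.09 for Ncl (0.154) and 0.27 ± 0.08 for Ddx21 (0.182). Together with Ddx5 they are the 4 genes whose deletion libraries were all above wildtype (9.73% of genes were).

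The genes lie on 9 chromosomes in GRCm38.p6, and in GDel2 the genes of chromosomes 6 and 8 were shifted upward. Cnbp, on chromosome 6 (87842615 to 87851106), stood at 0.63 where the other 657 tested genes of its chromosome had a median of 0.51, and 41.1% of them were above it. The 22 tested genes within 1000 kb of Cnbp had a median of 0.37. Wrn, on chromosome 8 (33234372 to 33385543), stood at -0.06 where the other 712 genes had a median of 0.44, and 85.4% of them were above it. The 13 genes within 1000 kb of Wrn had a median of 0.42. For the other 8 genes the chromosome median in GDel2 was -0.04 to 0.11. The highest, 0.11, was that of chromosome 11, which holds Ddx5 and where 26.2% of 1089 genes rose (17.4% of all genes). In GDel1 the medians of chromosomes 6 and 8 were both -0.01, where Cnbp was 0.30 and Wrn 0.16. The part of the chromosome in the values of Cnbp and Wrn was not tested.

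**Figure D5:**
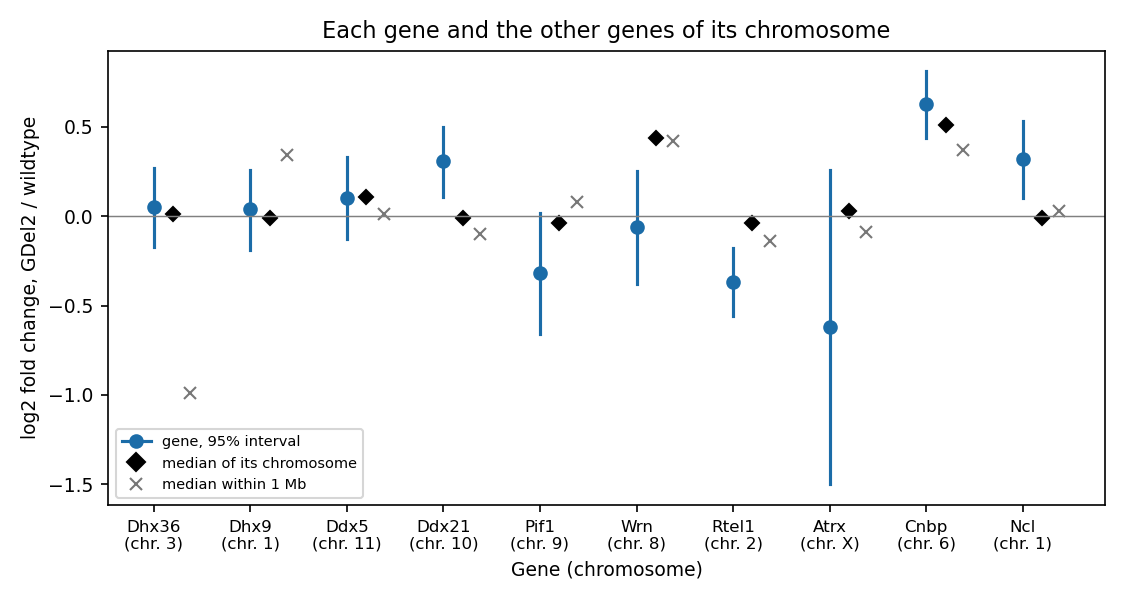
Log2 fold change of each of the 10 genes in GDel2 against wildtype with its 95% interval, beside the median of the other tested genes on its chromosome (diamonds) and the median of those within 1000 kb (crosses). In GDel2, Cnbp is near the raised median of chromosome 6 and Wrn is below the raised median of chromosome 8.

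Other genes of the same processes were read from 7 lists with 179 tested genes. The lists were chosen with earlier results of these data known, so the shares below only describe these genes. They were not matched to all genes for expression level. In GDel2, 51 of the 179 rose and 25 fell (42.5% passed, against 33.1% of all genes), and in GDel1 none passed (0.376% of all genes). Chromosomes 6 and 8 held 17 of the 51 that rose (33.3%), against 26.0% of all genes that rose. Away from these chromosomes 37.6% of list genes passed, against 30.7% of all genes. Chromosome 11, where 26.2% of genes rose, was not set aside. Of the genes described below it holds Pes1, Nhp2, Pold2 and Npm1, which rose, and Ctc1, which fell. Of 27 list genes kept under the naming rule for this comparison, not all of which are described below, 23 passed in every fit that left out 1 library. The 4 that did not were Mov10, Hmgb2, Pot1a and Gins2, whose calls were lost, as examples, without GDel2 replicate 2 for Mov10 (adjusted p = 0.152), Hmgb2 (0.0640) and Pot1a (0.0557) and without GDel2 replicate 1 for Gins2 (0.201). Pot1a lies on chromosome 6 and Hmgb2 and Gins2 on chromosome 8. Of the same 27 genes, 8 lost their call on TPM and 3 lost it in a fit with the replicate number as a block. The counts of each list in GDel2 below stand beside 17.4% of all genes that rose, 15.6% that fell and a median log2 of 0.01.

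The nucleolar partners of nucleolin and Ddx21 rose in 10 of 24 (17.4% of all genes rose) and fell in 0 (15.6%) in GDel2, with a median log2 of 0.27 against 0.01 over all genes. Polr1b, a large subunit of RNA polymerase I, had 271 ± 28.2 CPM (SD, n = 2) against 117 ± 4.36 in wildtype (n = 3), a log2 of 1.22 ± 0.09 (adjusted p = 4.94e-05). In GDel1 it was 81.5 ± 2.25 CPM, and GDel2 exceeded GDel1 by 1.73 ± 0.10 (2.46e-05). Pes1, a factor of the large ribosomal subunit, rose by 0.80 ± 0.13 (0.00233), Nhp2, of the pseudouridylation particles, by 0.72 ± 0.10 (8.37e-04), and Nop2, a ribosomal RNA methyltransferase encoded on chromosome 6, by 0.61 ± 0.08 (7.73e-04). In GDel1 against wildtype the median of this list was 0.20 and none passed.

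The replisome and fork partners of Pif1, Wrn and Rtel1 rose in 11 of 29 (17.4% of all genes) and fell in 1 (15.6%), with a median of 0.14, while Pif1, Wrn and Rtel1 were at -0.32, -0.06 and -0.37. Pold2, a subunit of DNA polymerase delta, had 87.9 ± 3.52 CPM in GDel2 against 53.4 ± 0.626 in wildtype (log2 0.72 ± 0.09, adjusted p = 4.63e-04). The sliding clamp Pcna rose by 0.71 ± 0.11 (0.00139) and the checkpoint kinase Atr by 0.70 ± 0.12 (0.00272). The ATRX partners rose in 2 of 15 and fell in 4, with a median of -0.17. Cbx3, a heterochromatin protein encoded on chromosome 6, rose by 0.79 ± 0.11 (8.61e-04), the histone chaperone Asf1a rose by 0.61 ± 0.10 (0.00178), and the histone methyltransferase Suv39h1 fell by 0.55 ± 0.10 (0.00390).

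Other helicases and nucleases that act on G-quadruplexes rose in 5 of 25 and fell in 6, with a median of 0.02, against 17.4%, 15.6% and 0.01 over all genes. Recql, a RecQ helicase encoded on chromosome 6, had 40.3 ± 1.66 CPM in GDel2 against 21.7 ± 0.655 in wildtype (log2 0.89 ± 0.10, adjusted p = 2.87e-04). Mcm8, a helicase of recombination repair, rose by 0.86 ± 0.15 (0.00307), and the germline helicase Mov10l1 rose from 1.54 ± 0.206 to 5.44 ± 0.997 CPM (0.00101). Its relative Mov10 fell by 0.93 ± 0.25 (0.0269). Among paralogs of the 10 genes 9 of 22 rose (17.4% of all genes) and 4 fell (15.6%), with a median of 0.12. Rbm28, a nucleolar protein with RNA-binding domains as in nucleolin, encoded on chromosome 6, rose by 0.72 ± 0.09 (7.09e-04), and Smarca1, a chromatin remodeller, rose from 1.85 ± 0.296 to 14.1 ± 3.18 CPM (4.19e-05). The splicing helicase Dhx16 fell by 0.53 ± 0.09 (0.00213). The Y-linked helicase Ddx3y had 62.8 ± 4.78 CPM in wildtype, 90.3 ± 18.4 in GDel1 and 0.155 ± 0.116 in GDel2.

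RNA-binding proteins reported to bind RNA G-quadruplexes rose in 7 of 30 and fell in 3, with a median of 0.09. Lin28a, which remodels G-quadruplexes in microRNA precursors, had 203 ± 3.70 CPM in GDel2 against 106 ± 9.01 in wildtype (log2 0.95 ± 0.09, adjusted p = 1.83e-04), and Hnrnpd fell by 0.93 ± 0.10 (2.77e-04). DNA-binding proteins of the last list rose in 7 of 34 and fell in 7, with a median of -0.06. Npm1, the nucleolar protein nucleophosmin, had 3388 ± 463 CPM in GDel2 against 1798 ± 88.7 in wildtype (log2 0.91 ± 0.11, 5.30e-04). Ctc1, a telomere protein that binds single strands, fell by 0.88 ± 0.09 (1.71e-04).

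The genes whose log2 CPM was most like that of each called gene over the 7 libraries were taken as the 2 with the highest Pearson correlation among all tested genes. For Cnbp these were Fbxo15 (0.9955) and Phkb (0.9938), and for Rtel1 they were Sptan1 (0.9963) and Ncaph2 (0.9944). For Ncl they were Acp1 (0.9909) and Tmed9 (0.9888), and for Ddx21 Gm44044 (0.9826) and Srp72 (0.9756). Fbxo15 had 111 to 116 CPM in wildtype, 146 and 148 in GDel1 and 193 and 208 in GDel2, the same order of groups as Cnbp. Sptan1 had 355 to 366 CPM in wildtype, 390 and 410 in GDel1 and 294 and 288 in GDel2, the order seen for Rtel1. These values describe 7 libraries in 3 groups, and with 15421 genes searched high correlations are common, with 245 genes above 0.95 for Cnbp and 196 for Rtel1.

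Some counts of these genes may hold reads of neighbours. Ddx5 overlaps Cep95 (12.8 CPM in wildtype), and Ncl hosts the small nucleolar RNAs Snora75 (1.08 CPM) and Snord82, which was listed at 0. Ddx5 and Ncl were the 2 of the 10 genes whose deposited expected counts were not exactly whole in every library.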

How the data were processed

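RNA of 7 libraries was analysed (3 wildtype, 2 GDel1, 2 GDel2). The other samples of the series (66 in all) are not analysed here. Groups came from the labels. Each library had a deposited table of RSEM gene results with expected counts that the authors did not scale for depth. The deposited tables also held TPM, which the authors scaled for effective length and library, and transcript lengths in bases. The deposited FPKM values were not used. Tools named in the submitters' processing notes for the whole series are Bowtie2, STAR, RSEM, deepTools and HiC-Pro, with the mm10 build. For their versions, the annotation release and the strand used in counting, nothing is given in the sources used here.

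Of 55487 gene identifiers, 55141 had a symbol in a table of gene names. Positions and promoters came from RefSeq tables of GRCm38.p6. Expected counts were rounded, genes were kept with filterByExpr (minimum count 10, minimum total 15), and edgeR 4.0.16 in R 4.3.3 was used (TMM scaling, robust quasi-likelihood F test). A fit with 3 groups gave the contrasts of GDel1 and GDel2 with wildtype and with each other, and the deletion group of 4 was compared in a fit with 2 groups. P values were 2-sided, with Benjamini-Hochberg adjustment over 15421 genes. Alternatives included DESeq2 1.42.0, limma 3.58.1 on log2(TPM + 1) and log2(TPM + 0.1), other filters and scaling, a replicate block and leaving out libraries. The fits were tested on simulated data.

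The 10 genes and the lists were chosen with earlier results of these data known. Named genes were the 10, up to 4 of each list with the largest change among those that passed with at least 2 CPM in the higher group and groups that did not overlap, and the 2 genes most correlated with each called gene. The genes given for each list are some of these, and a few are not reported here. The lists' symbols Ddx39a and Zfp274 had no match.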

Additional observations from a re-analysis of the deposited data

Results flagged for a closer look

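Among the 4 deletion libraries 1 library stood far from the other 3 in 4 of 20 measures (CPM and transcript length of the 10 genes). Chance alone gives such a gap in about 1 in 20 groups of libraries that are alike and measured independently. These libraries came from GDel1 and GDel2 and the measures were not independent, so the count cannot be read as an excess over chance. GDel1 replicate 2 stood apart at 971 CPM for Ddx5, with 781 to 801 in the others, and at 34.9 CPM for Pif1, with 22.5 to 24.2 in the others. GDel2 replicate 1 stood apart in the mean transcript length of Atrx, 4137 bases with 4706 to 4743 in the others, and in that of Cnbp, 1582 bases with 1574 and 1575 in the others. Effects that differed between GDel1 and GDel2 by the direct test in edgeR were those of Rtel1 (-0.58, GDel2 against GDel1) and Cnbp (0.32). The causes were not tested.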

How the results depend on the processing

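With 2 or 3 libraries a group and 12316853 to 18762704 counts a library, calls near the threshold turn on single libraries. Over the alternatives, 570 values of the 10 genes kept direction and side of the threshold, 29 lost and 30 gained a call, and 61 changed sign. For list genes 802 kept both, 80 lost a call and 2 changed sign.

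The number of the 10 genes called in GDel1 against wildtype (0 in edgeR) was 2 with DESeq2, 1 with limma on either TPM scale and 1 without the filter on low counts. In GDel2 against wildtype (4) it was 1 on either TPM scale. In GDel2 against GDel1 (2) it was 1 on log2(TPM + 1) and log2(TPM + 0.1), where 3747 and 3931 of all genes were called. Without GDel1 replicate 1 and GDel2 replicate 2 it was 6, 6 and 4, where 4262, 5912 and 5908 of all genes were called. In the deletion group (0) it was 3 with DESeq2 and 3 when GDel1 and GDel2 were averaged in the fit with 3 groups. Leaving out 1 library gave 0 to 3, 1 to 5, 1 to 4 and 0 to 0. Without the filter Ddx21 in GDel2 (adjusted p = 0.0577) and Cnbp between GDel2 and GDel1 (0.0945) lost their calls and Pif1 between them gained one (0.0252).

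The number of all genes called in GDel1 (58) was 993 with DESeq2, 3250 and 3531 on log2(TPM + 1) and log2(TPM + 0.1), 2357 without the filter, 225 with a stricter one, 33 without robust estimation and 4 to 2034 without 1. In GDel2 (5099) it was 2604 and 2492 on the TPM scales and 2643 to 6578 without 1 library, and between GDel2 and GDel1 (4268) it was 2602 to 5617. In the deletion group (0) it was 969 with DESeq2, 2 on log2(TPM + 1), 1 without the filter and 3149 for the average of GDel1 and GDel2.

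Signs turned mostly on the TPM scales, where GDel1 sits below wildtype over all genes. On log2(TPM + 1) and log2(TPM + 0.1) the GDel1 values were -0.34 and -0.35 for Dhx36, -0.35 and -0.35 for Dhx9, -0.40 and -0.40 for Ddx5, -0.23 and -0.23 for Ddx21, -0.20 and -0.23 for Pif1, -0.24 and -0.29 for Wrn, -0.57 and -0.58 for Rtel1, and -0.16 on both for Atrx and Cnbp. In GDel2 they were -0.08 for Dhx36 and -0.06 for Dhx9 on both. Between GDel2 and GDel1 they were 0.26 and 0.27 for Dhx36, 0.29 on both for Dhx9, 0.44 for Ddx5, 0.10 and 0.13 for Wrn, 0.17 for Ncl and 0.05 for Timeless. In the deletion group they were -0.21 and -0.22 for Dhx36, -0.20 for Dhx9, -0.18 for Ddx5, 0.00 for Ddx21 and -0.19 and -0.22 for Wrn.

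Without 1 library, or without GDel1 replicate 1 and GDel2 replicate 2 together, values that changed sign ranged from 0.00 to 0.22 for Dhx9 and -0.22 to 0.33 for Pif1 in GDel1, and in GDel2 from -0.06 to 0.14 for Dhx36, -0.01 to 0.07 for Dhx9 and -0.27 to 0.11 for Wrn. Between GDel2 and GDel1 they ranged from -0.19 to 0.01 for Dhx36, -0.19 to 0.04 for Dhx9, -0.02 to 0.11 for Ddx21 and -0.18 to 0.04 for Ncl. In the deletion group they ranged from -0.29 to 0.04 for Pif1, -0.11 to 0.15 for Wrn, -0.18 to 0.04 for Rtel1 and -0.38 to 0.15 for Atrx. The causes were not tested.

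Libraries with the same replicate number did not deviate from their group means in the same way. For wildtype with GDel1, wildtype with GDel2 and GDel1 with GDel2, the deviations correlated over genes at 0.123, -0.103 and -0.371 for replicate 1. For replicate 2 the values were -0.0285, -0.125 and -0.371. With 2 libraries per deletion, the value between GDel1 and GDel2 is the same for both numbers by construction. Whether the numbers mark batches cannot be told from these values. With the replicate block, 1 of the 10 genes was called in GDel2 against wildtype (Cnbp) and 1 in GDel2 against GDel1 (Rtel1), and 1, 2296 and 2235 of all genes in GDel1, GDel2 and between them. A crossed pairing of the deletion libraries, chosen after the data were seen, called 5, 5 and 4 of the 10 genes and 3285, 6969 and 6150 of all genes.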
